A study of Rattus norvegicus with 3 samples.

Results

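The genes described here encode the proteins that build peroxisomes and the enzymes that break down fatty acids in peroxisomes and mitochondria. They were chosen by their symbol in the array annotation: the peroxins (Pex genes), the acyl-CoA oxidases, the acyl-CoA dehydrogenases, the Hadh family, the electron transfer flavoprotein and its oxidoreductase, the carnitine palmitoyltransferases, the enoyl-CoA hydratases and isomerases, the thiolases of the Acaa family, the acyl-CoA thioesterases and the Abcd transporters. No measured value entered this rule, but members and roles were chosen with earlier results of these data known. The rule found 55 of 15037 named genes. From textbook knowledge of where the proteins work, 24 were taken as peroxisomal, 21 as mitochondrial, 3 as belonging to both and 7 as working elsewhere. The study measured the FRSK line of keratinocytes, which derives from the skin of fetal rats, on 3 whole-transcript arrays, 1 for each condition. The conditions were unstimulated control, Met-enkephalin (Met-ENK) and the β-endorphin fragment β-END(1-9), and each peptide was added at 100 nM for 24 h to cells grown in DMEM with serum. The labels do not give a strain, a passage or a vehicle for the control. There is no replicate of any condition, so every difference below is one between 2 single arrays, has no replicate check, and carries no p-value or error.

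Fatty acids are shortened in cells by β-oxidation, a cycle of dehydrogenation, hydration, a further dehydrogenation and thiolysis. Mitochondria take up long-chain acyl groups through the carnitine shuttle and pass the electrons of the first step through the electron transfer flavoprotein to the respiratory chain, whereas peroxisomes handle very-long-chain and branched fatty acids with oxidases that form hydrogen peroxide. Peroxisomes import their enzymes fully folded, through receptors that recognise a short targeting signal at either end of the cargo protein. In the epidermis, fatty acids also feed the lipids of the skin barrier.

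All signals are log2 values as deposited, and genes were counted when 2 arrays differed by 1.5-fold or more (0.58 in log2 units). Background is represented by 23 probe sets, which spanned 2.51 to 7.57, and a signal inside this range cannot be separated from background by level. Of the 55 genes, 25 lay above this range on at least 1 array and 30 lay within it on all 3 arrays. A mean signal at or above the median of all named genes (6.41) was reached by 36 of the 55. The labelled cell type matched its markers: all 7 measured basal keratinocyte markers lay above the background range, as did 2 of 7 fibroblast, 1 of 6 adipocyte, 0 of 6 hepatocyte, 1 of 5 immune cell and 1 of 3 melanocyte markers. Equal signals on all 3 arrays occurred for 10 of the 55 genes (18.2%) and for 15.5% of all named genes, which draws medians to 0. The 399 positive control probe sets differed from control by a median of -0.23 (Met-ENK) and -0.12 (β-END(1-9)). The 1153 negative control probe sets differed in the opposite direction, by a median of 0.086 and 0.031. The part of these shifts in the differences below was not tested.

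**Figure D1:**
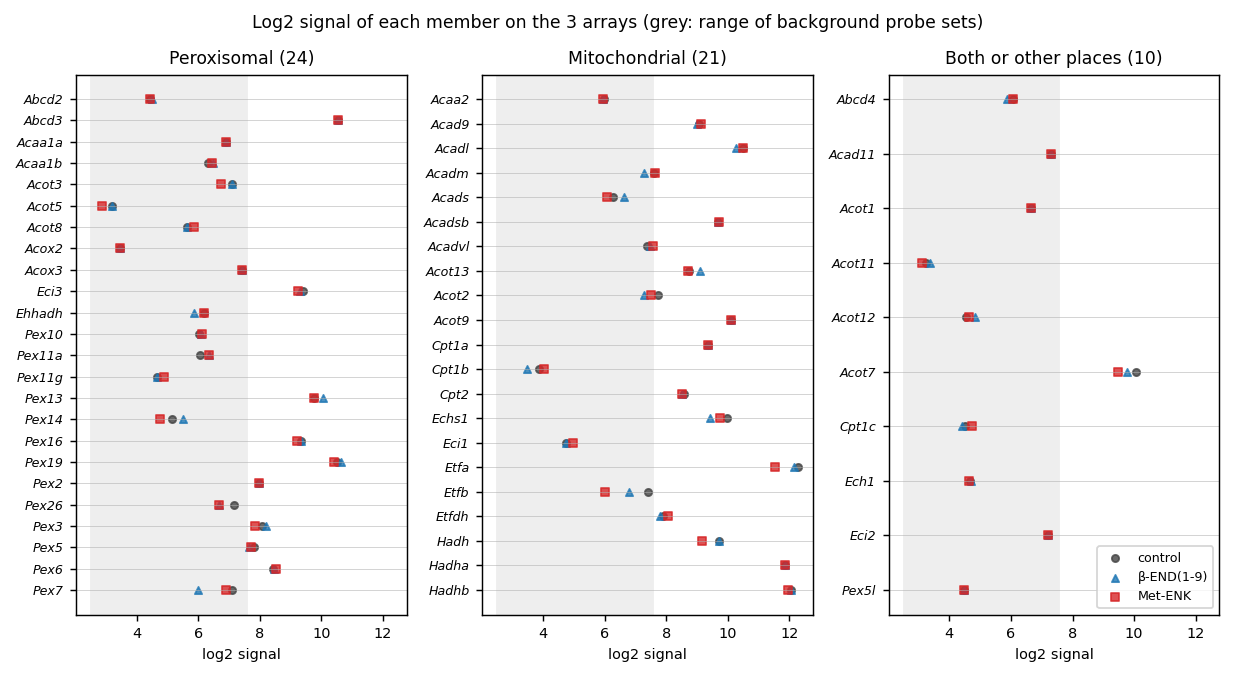
Log2 signal (horizontal axis) of each of the 55 genes on each of the 3 arrays (control, β-END(1-9), Met-ENK), 1 point per array, with the span of the background signals (2.51 to 7.57) in grey. For most genes the 3 points overlap; Etfa, Etfb, Pex7 and Acot7 are spread the most among genes at or above the median level.

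The programme as a whole showed little difference between arrays. With Met-ENK, 3 of the 55 genes (5.45%) had a signal at least 1.5-fold under that of control cells, namely Etfb, Etfa and Acot7, against 4.21% of all named genes, and 0 were at least 1.5-fold higher, against 2.98%. Among named genes at or above the median level, where these 3 genes lie, the shares were 6.02% and 0.692%. With β-END(1-9), 2 of the 55 (3.64%) were at least 1.5-fold lower, namely Pex7 and Etfb, against 1.97% of all named genes, and 0 were higher, against 2.64% (2.27% and 0.559% at or above the median level). These shares rest on 3 and 2 genes. All of these genes lie among the 36 of the 55 at or above the median level, so 36 is the matching total for the shares at that level. The lower shares of the 55 genes exceed those of all named genes, but counts this small do not set the 55 genes apart. The median difference from control over the 55 genes was 0.00 with either peptide, as it was over all named genes. In bulk RNA, fewer cells that express a gene and less of its RNA per cell cannot be told apart.

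The electron transfer flavoprotein held the lowest values against control on the Met-ENK array. It is a dimer of the α subunit, encoded by Etfa, and the β subunit, encoded by Etfb, and it collects electrons from the acyl-CoA dehydrogenases. Etfa had log2 signals of 12.28 in control cells, 12.15 after β-END(1-9) and 11.54 after Met-ENK. The control and β-END(1-9) arrays lay close together and the Met-ENK array below both, 1.67-fold below control (difference -0.74). Etfb had 7.40 in control cells, 6.80 after β-END(1-9) and 6.02 after Met-ENK. Here both peptide arrays lay below control, Met-ENK by 2.62-fold (-1.39) and β-END(1-9) by 1.51-fold (-0.60), but all 3 signals lie within the background range. The β-END(1-9) difference of Etfb fell short of 1.5-fold after quantile normalization (-0.55), after a loess correction on level (-0.56) and with the trend along genomic span removed (-0.58), whereas the Met-ENK differences of Etfa and Etfb stayed past 1.5-fold under each of these. Etfdh, the oxidoreductase that hands the electrons of the flavoprotein to ubiquinone, did not share the pattern: it had 7.89 in control cells, 7.81 after β-END(1-9) and 8.04 after Met-ENK.

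The sequences before the start sites of Etfa and Etfb are shown because the genes of both subunits were lower with Met-ENK, and that of Pex7 because it had the largest difference with β-END(1-9). They are the 250 bases upstream of the annotated start in RefSeq's GRCr8 assembly, printed 5′ to 3′ on the strand of the gene. Capitals mark CCAAT boxes (CCAAT or ATTGG) and GC boxes (GGGCGG or CCGCCC), 2 common promoter motifs searched on both strands; no 2 of these matches overlap. Etfa lies on the minus strand at chr8:64787966-64788215, Etfb on the plus strand at chr1:102988249-102988498 and Pex7 on the minus strand at chr1:16466305-16466554.
Etfa: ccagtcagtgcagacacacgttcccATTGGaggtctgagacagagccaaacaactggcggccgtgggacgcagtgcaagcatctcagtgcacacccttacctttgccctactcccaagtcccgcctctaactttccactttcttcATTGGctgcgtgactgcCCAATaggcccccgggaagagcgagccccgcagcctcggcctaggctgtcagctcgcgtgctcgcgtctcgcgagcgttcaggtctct
Etfb: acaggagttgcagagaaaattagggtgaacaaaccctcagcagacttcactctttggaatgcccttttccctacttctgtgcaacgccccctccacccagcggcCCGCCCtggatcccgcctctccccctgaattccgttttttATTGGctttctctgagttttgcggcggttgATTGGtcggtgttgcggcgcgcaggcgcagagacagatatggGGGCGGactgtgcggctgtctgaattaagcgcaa
Pex7: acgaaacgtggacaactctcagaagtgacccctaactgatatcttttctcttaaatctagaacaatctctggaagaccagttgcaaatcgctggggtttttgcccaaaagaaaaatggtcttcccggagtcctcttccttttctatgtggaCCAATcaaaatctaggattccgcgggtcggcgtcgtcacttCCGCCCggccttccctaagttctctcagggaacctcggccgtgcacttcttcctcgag
Etfa holds 3 CCAAT boxes and 0 GC boxes, Etfb holds 2 of each and Pex7 holds 1 of each. Among the 47 of the 55 genes with a sequence in the table, 16 (34.0%) hold a CCAAT box, against 34.0% of all 33469 promoters and 35.2% of the 12435 promoters of named genes with 1 start site taken for each. A GC box is found in 32 of the 47 (68.1%), against 30.5% of all promoters and 47.0% of those of named genes. The motif of peroxisome proliferator-activated receptors (PPARs) was searched as an exact direct repeat, 2 copies of AGGTCA with 1 base between them. It is in 0 of the 47 and in 0.051% of all promoters. The exact string TCAAGGTCA, the motif of the estrogen-related receptors, is in 0 of the 47 and 0.39%. Both strings are so rare over all promoters that 0 of 47 does not show that these genes lack such sites. These counts describe letters in a short window and not binding.

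Upstream of the flavoprotein, 0 of the 4 Cpt genes and 0 of the 4 fatty acyl-CoA dehydrogenase genes differed from control by 1.5-fold. Cpt1a, which makes acyl-carnitines at the outer mitochondrial membrane and is regarded as the controlled step of the pathway, had exactly 9.36 on all 3 arrays. Cpt2, which reverses that reaction on the inner membrane, had 8.58 in control cells and 8.52 after either peptide. Cpt1b, the muscle form, and Cpt1c, the brain form, stayed within the background range, at 3.48 to 4.02 and 4.42 to 4.74. Of the dehydrogenases, Acadl for long chains had 10.48 in control cells, 10.25 after β-END(1-9) and 10.50 after Met-ENK. Acadm for medium chains had 7.59, 7.28 and 7.65 in the same order, so that both genes were lower with β-END(1-9) alone, by less than 1.5-fold (-0.23 and -0.31). The Acadm signal lay just above the background range on the control and Met-ENK arrays and within it after β-END(1-9). Acadvl for very long chains had 7.38, 7.46 and 7.56, and Acads for short chains had 6.27, 6.63 and 6.09, both within the background range. Acadsb and Acad9, relatives with roles in isoleucine breakdown and complex I assembly, differed from control by at most 0.07 in size (Acad9 with Met-ENK).

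The later steps of the mitochondrial cycle held both even genes and some lower ones. The trifunctional protein, which carries out the last 3 steps for long chains, is made of the products of Hadha and Hadhb. Hadha had 11.87 in control cells, 11.87 after β-END(1-9) and 11.86 after Met-ENK, and Hadhb had 12.06, 12.06 and 11.97. Both subunit genes of this complex stayed within 0.10 of control. Hadh, the dehydrogenase for shorter chains, had 9.70 on the control and β-END(1-9) arrays and 9.18 with Met-ENK, a difference of -0.52 that falls short of 1.5-fold. Echs1, the hydratase for shorter chains, was lower mainly with β-END(1-9): it had 9.98, 9.41 and 9.75, with differences of -0.57 and, for Met-ENK, -0.24. The thiolase gene Acaa2 had 5.99, 5.94 and 5.95, and the isomerase gene Eci1 had 4.76, 4.76 and 4.98, both within the background range.

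**Figure D2:**
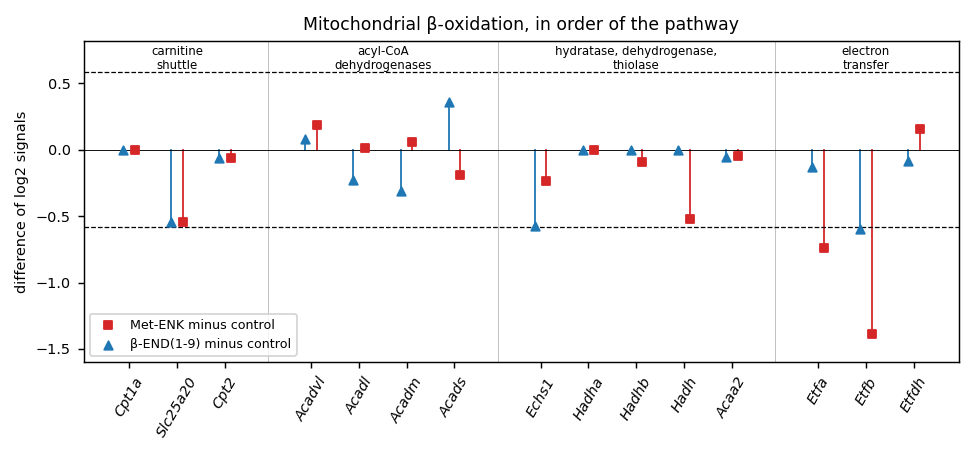
Difference of log2 signals from control (vertical axis) for genes of mitochondrial β-oxidation in pathway order, squares for Met-ENK and triangles for β-END(1-9), with dashed lines at 1.5-fold. Both peptides share 1 control array. Of the genes plotted, Etfa and Etfb cross the line with Met-ENK and Etfb with β-END(1-9). Echs1 with β-END(1-9), Hadh with Met-ENK and Slc25a20, the carnitine carrier, with both come close. The 2 peptide signals of Slc25a20 are equal, so its 2 points are a single difference.

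The acyl-CoA thioesterases, which split acyl-CoA into free fatty acid and coenzyme A, gave 1 gene past 1.5-fold. Acot7, a thioesterase of the cytosol that is abundant in brain, had 10.05 in control cells, 9.78 after β-END(1-9) and 9.46 after Met-ENK, all above the background range. The Met-ENK array was lowest (-0.59 against control), and this difference fell below the threshold after quantile normalization (-0.50) and after the loess correction (-0.51). The mitochondrial Acot9 had 10.10 on all 3 arrays. Acot13 was higher with β-END(1-9) alone (8.74, 9.09 and 8.70 in the order control, β-END(1-9) and Met-ENK), and Acot2 was lower with it (difference -0.44, from 7.72 in control cells). The Acot2 signal lay within the background range after either peptide. The 6 other thioesterase genes, Acot1, Acot3, Acot5, Acot8, Acot11 and Acot12, lay within the background range on all arrays, with differences from control between -0.36 (Acot3 with Met-ENK) and 0.31 (Acot12 with β-END(1-9)).

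Among the peroxins, the largest difference was that of Pex7 with β-END(1-9). Pex7 is the receptor for the few peroxisomal enzymes that carry an N-terminal targeting signal. It had 7.08 in control cells, 5.98 after β-END(1-9) and 6.89 after Met-ENK. The β-END(1-9) array stood alone, 2.16-fold below control (-1.11), while the Met-ENK array was close to control (-0.19); all 3 signals lie within the background range. Pex5, the receptor for the much more common C-terminal signal and a partner of Pex7 in import, had 7.80, 7.64 and 7.73 and differed little.

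The rest of the import machinery gave no gene past 1.5-fold from control. Of the docking proteins that receive the loaded receptors at the membrane, Pex13 had 9.77 in control cells, 10.05 after β-END(1-9) and 9.75 after Met-ENK. Pex14 had 5.15, 5.51 and 4.77, within the background range. Of the genes that recycle the receptors, Pex2, a RING-finger ubiquitin ligase, had 7.98 on all 3 arrays, and its partner Pex10 had 6.01, 6.10 and 6.11. Pex6, an ATPase that pulls receptors out of the membrane, had 8.42, 8.46 and 8.53. Its membrane anchor Pex26 was lower with both peptides by the same amount, with 7.16 in control cells and 6.66 after either peptide (-0.50), within the background range. Because the 2 peptide signals of Pex26 are equal and share 1 control array, this is a single difference.

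The genes that insert peroxisomal membrane proteins all lay above the background range. Pex19, the chaperone of these proteins, had 10.51 in control cells, 10.63 after β-END(1-9) and 10.42 after Met-ENK. Pex3, its docking factor, had 8.08, 8.21 and 7.85, and Pex16 had 9.33, 9.33 and 9.20. With Met-ENK the differences from control were -0.088 (Pex19), -0.24 (Pex3) and -0.13 (Pex16). In this comparison 5394 of 15037 named genes were below 0, and the positive control probe sets had a median of -0.23. A further probe set of Pex19 lay within the background range, at 6.12, 5.71 and 5.67, and disagreed in direction for β-END(1-9) (-0.41 against 0.12). Pex11a and Pex11g, which elongate and divide peroxisomes, were at 6.05, 6.34 and 6.34 and at 4.67, 4.67 and 4.88, so neither could be told from background by level.

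**Figure D3:**
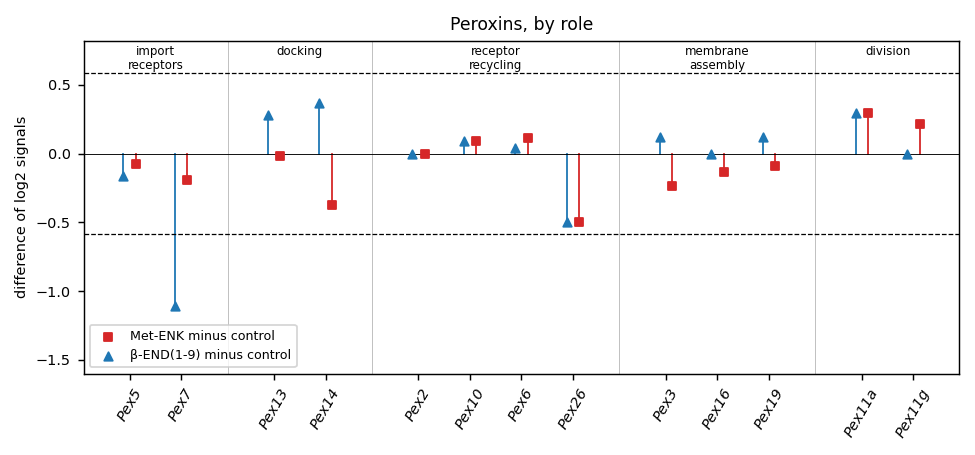
Difference of log2 signals from control (vertical axis) for 13 peroxin genes grouped by role, squares for Met-ENK and triangles for β-END(1-9), with dashed lines at 1.5-fold. Pex7 with β-END(1-9) is the 1 point beyond a dashed line.

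Of the enzymes inside the peroxisome, the 5 measured core-cycle genes that the naming rule takes in all lay within the background range; Hsd17b4 and Scp2, which it does not take in, are given with the other pathway genes. Acox3, an oxidase for branched chains, and the thiolase gene Acaa1a had equal signals on the 3 arrays, at 7.41 and 6.89, as had Acox2 at 3.46. Ehhadh, the bifunctional enzyme, had 6.18 on the control and Met-ENK arrays and 5.87 with β-END(1-9), and Acaa1b had 6.32, 6.47 and 6.46 in the order control, β-END(1-9) and Met-ENK. Abcd3, a transporter that brings acyl-CoA into peroxisomes, lay well above background and was even, at 10.53 in control cells, 10.53 after β-END(1-9) and 10.54 after Met-ENK; its relative Abcd2 lay within the range, at 4.45 to 4.50. The isomerase gene Eci3 had 9.39, 9.31 and 9.25. The genes for proteins found in both organelles lay within the background range: Eci2 had 7.21 and Acad11 7.29 on all 3 arrays, and Ech1 had 4.68, 4.70 and 4.62. Pex5l and Abcd4, which match the naming rule but work in neuronal channel regulation and lysosomal cobalamin transport, were within the background range with differences from control of 0.00 and -0.20 at most in size.

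Set side by side, the peroxisomal and mitochondrial genes had nearly the same medians. With Met-ENK the median difference from control was 0.00 for the 24 peroxisomal and -0.0017 for the 21 mitochondrial genes. At least 1.5-fold lower were 0 and 2 of them (0% and 9.52%). The shares were 4.21% over all named genes and 6.02% over those at or above the median level. With β-END(1-9) the medians were 0.00 and -0.052. In each group 1 gene was at least 1.5-fold lower, which is 4.17% of the 24 and 4.76% of the 21 genes with no filter on level. The shares were 1.97% over all named genes and 2.27% over those at or above the median level. Counts this small do not set the 2 groups apart. The groups differ in what could be measured: 15 of 21 mitochondrial genes but 9 of 24 peroxisomal genes lay above the background range on at least 1 array.

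The mitochondrial fatty acid genes did not share the level difference of 2 other groups of mitochondrial genes on the Met-ENK array. The 40 complex I genes (Nduf symbols) lay at a median of -0.41 against control, with 14 at least 1.5-fold lower, and the 66 mitochondrial ribosomal protein genes had -0.40, with 21 lower. In the 21 mitochondrial fatty acid genes the median was -0.0017, and in all 55 genes it was 0.00. No test of this difference is possible with 1 array per condition. The span of the genes on the genome, introns included, also differed: its median was 23.0 kb for the mitochondrial fatty acid genes, 17.1 kb for the peroxisomal genes, 7.13 kb for complex I and 6.17 kb for the mitochondrial ribosome. Among all named genes with Met-ENK, 6.22% in the quintile with the shortest span and 1.73% in that with the longest were at least 1.5-fold lower. With the trend along span removed the medians were -0.024 for the mitochondrial fatty acid genes, -0.36 for complex I and -0.35 for the mitochondrial ribosome. With β-END(1-9) the medians before that correction were closer, at -0.052, -0.045 and -0.11.

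**Figure D4:**
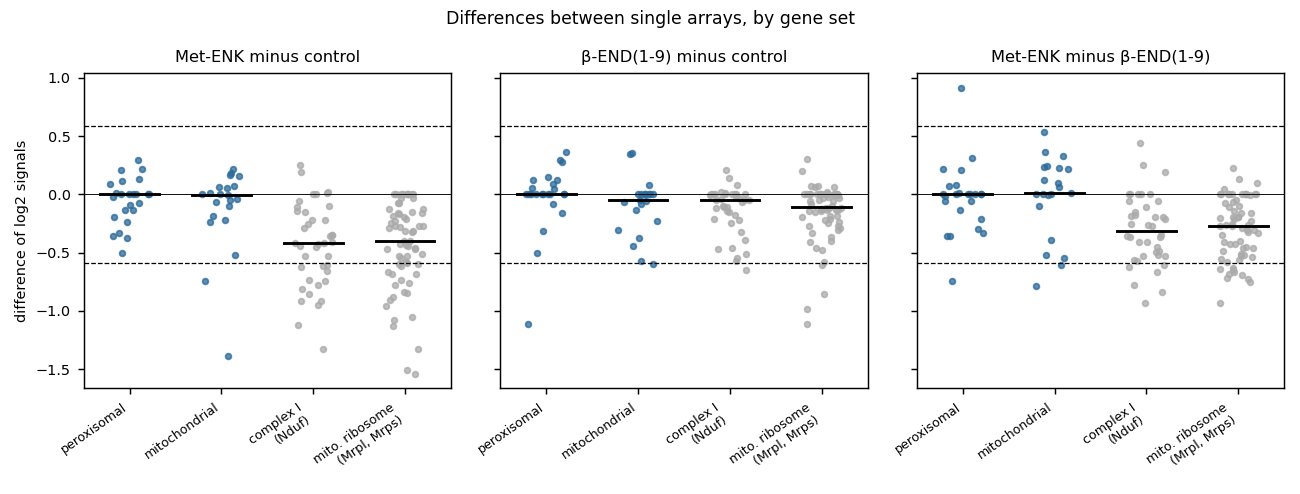
Difference of log2 signals (vertical axis) for each gene of 4 sets in the 3 comparisons; each point is a gene, the bar is the median and dashed lines mark 1.5-fold. With Met-ENK against control the medians are 0.00 for the peroxisomal and -0.0017 for the mitochondrial fatty acid genes, -0.41 for complex I and -0.40 for the mitochondrial ribosome.

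**Figure D5:**
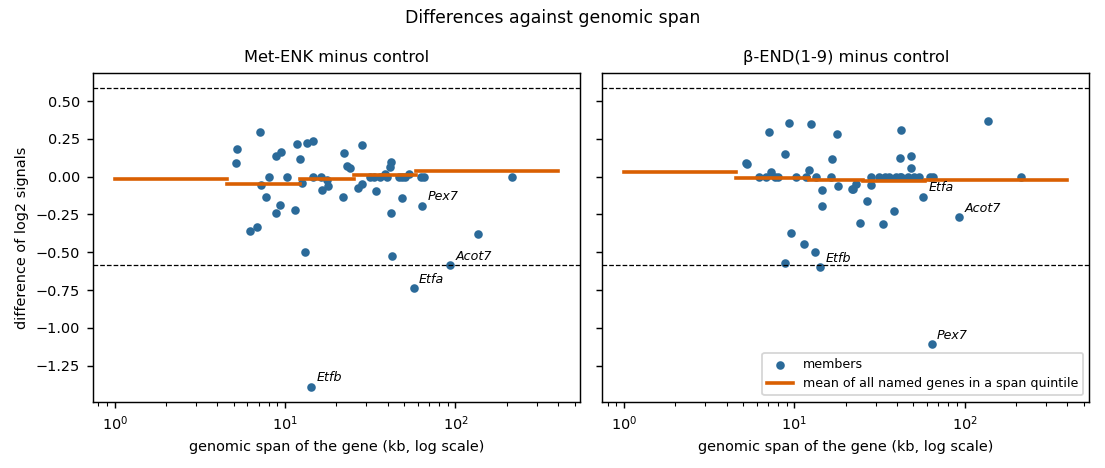
Difference of log2 signals from control (vertical axis) against genomic span (horizontal axis, log scale) for the 55 genes as points, with the mean of all named genes in each span quintile as a bar; the outermost bars are cut off at the edges of the plotted range. The genes past 1.5-fold with Met-ENK lie at 14.2 kb (Etfb), 56.8 kb (Etfa) and 92.8 kb (Acot7), and Pex7 lies at 64.0 kb.

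The peptides were given at the same dose and for the same time, and β-END(1-9) begins with the sequence of Met-ENK and carries further residues. Between the 2 peptide arrays, 1 of the 55 genes (1.82%) was at least 1.5-fold higher with Met-ENK, against 2.51% of all named genes, and 3 (5.45%) were at least 1.5-fold lower, against 3.05% (1.89% and 2.7% at or above the median level). The higher gene was Pex7 (0.92) and the lower ones were Etfb (-0.79), Pex14 (-0.74) and Etfa (-0.61). Pex14 is not among the 36 genes at or above the median level. Of these 4 genes, Etfa alone lay above the background range. The median over the 55 genes was 0.00, with 21 genes higher and 21 lower with Met-ENK and 13 equal. No interval can be given for any of these differences.

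Genes of the same pathways outside the naming rule were read in lists written with earlier results of these data known. Their counts stand against the shares of all named genes given above, which with Met-ENK were 4.21% lower and 2.98% higher and with β-END(1-9) 1.97% and 2.64%. Among 18 measured genes for uptake, activation and carnitine transfer of fatty acids, 1 (5.56%) was at least 1.5-fold lower and 1 higher with Met-ENK, and 0 were lower and 1 higher with β-END(1-9). The lower gene, Mlycd, encodes the malonyl-CoA decarboxylase that relieves the inhibition of Cpt1 and had 7.63 in control cells, 7.40 after β-END(1-9) and 6.80 after Met-ENK (-0.84), with the control signal just above the background range and both peptide signals within it. Fabp5 with Met-ENK (0.60) and Acsl6 with β-END(1-9) (0.63) were higher, both within the background range. The carnitine carrier Slc25a20, which exchanges acyl-carnitine for carnitine across the inner membrane, had 9.34 in control cells and 8.79 after either peptide (-0.55), short of 1.5-fold. The medians of this list were 0.00 (Met-ENK) and -0.034 (β-END(1-9)).

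Of 9 auxiliary β-oxidation enzymes, Decr1, the reductase needed for unsaturated fatty acids, was the 1 gene past 1.5-fold from control, with 7.97 in control cells, 8.64 after β-END(1-9) (0.67) and 8.03 after Met-ENK. Hsd17b4, the main bifunctional enzyme of peroxisomal β-oxidation, had 8.13, 8.10 and 8.16, and Scp2, which encodes a peroxisomal thiolase and lipid carrier, had 9.83 on all 3 arrays, both above the background range. Of 23 genes listed as other peroxisomal proteins, 1 (4.35%) was at least 1.5-fold lower after Met-ENK, against 4.21% of all named genes. After β-END(1-9) 0 were, against 1.97%. The lower gene was Mpv17, a membrane protein found mainly in mitochondria, with 7.28, 7.28 and 6.64, within the background range. The gene of catalase, which removes the hydrogen peroxide of the oxidases, had 13.97, 13.81 and 14.05 (Cat). Far1, which makes fatty alcohols for ether lipids, had 14.84, 14.80 and 15.02. Their largest differences from control were -0.16 (Cat with β-END(1-9)) and 0.19 (Far1 with Met-ENK). Gnpat, the first enzyme of ether lipid synthesis, had 10.85, 10.33 and 10.35, differences of -0.52 and -0.50 that fall short of 1.5-fold.

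Among 12 regulators of fatty acid oxidation, 1 gene was at least 1.5-fold higher with either peptide. Prkaa2, a catalytic subunit of AMP-activated protein kinase, had 5.79 in control cells, 6.69 after β-END(1-9) and 6.68 after Met-ENK (0.90 and 0.89); the signals lie within the background range, and both differences rest on the same control array. Prkaa1, the other catalytic subunit, had 11.30, 11.06 and 11.38. The receptor gene Ppard had 10.53 in control cells and 10.39 after either peptide, Ppara had 6.39, 6.05 and 6.03, and the coactivator gene Ppargc1a had 3.36, 3.46 and 3.46, the last 2 genes within the background range. Of 10 PPAR target genes outside β-oxidation, only 2 lay above the background range on at least 1 array, so most could not be told from background by level. Among the 10, 0 were past 1.5-fold from control in either direction, with medians of -0.13 (Met-ENK) and -0.097 (β-END(1-9)). The 3 measured ketone body genes and the 4 shared organelle division genes also had 0 past 1.5-fold from control.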

How the data were processed

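The authors deposited 1 table of log2 signals with 1 column per array, and per the submitters' processing notes they used RMA with the programs Affymetrix Expression Console and Transcriptome Analysis Console, which corrects background, normalizes between arrays and summarises probes. Versions, the annotation release and the build: not given in the sources used here. Of 24834 probe sets, 1646 controls were left out. The platform annotation names 15049 of 23188 transcript clusters with 1 symbol each, several for 0 and none for 8139. A gene with more than 1 probe set was represented by that of highest mean signal. All 15037 genes were found by Entrez ID in RefSeq (GRCr8), which gave genomic spans and upstream sequences.

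Differences of log2 signals, counts and medians were computed in Python 3.11.15 with pandas 2.3.3, and trends with statsmodels 0.14.6 (lowess, fraction 0.3), after being tested on simulated data. With 1 array per condition no test was possible, and the number of arrays limits the precision. Counts and medians cover all 55 measured genes with no filter on level. All values of genes past 1.5-fold in any comparison at or above the median level were to be printed; the other genes were then described by role whatever their values. Members, roles and lists were chosen with earlier results of these data known. The motifs other than the direct repeat were chosen after the data were seen. Some family members are not analysed here.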

Additional observations from a re-analysis of the deposited data

How the results depend on the processing

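Of 13 alternative settings, those that rescaled the arrays (quantile normalization, median centring, loess on level) moved the median of all named genes by at most 0.04. Over named genes at or above the median level, quantile normalization and loess moved it further. With Met-ENK it went from 0.00 to 0.056 and 0.058, and with β-END(1-9) from -0.030 to 0.040 and 0.039. The number of genes at least 1.5-fold lower with β-END(1-9), 2 in the report, was 1 after quantile normalization, loess, removal of the span trend or a 2-fold threshold, 0 among the 23 genes with a mean above the highest background probe set, and 3 after median centring. The number lower with Met-ENK, 3 in the report, was 1 at 2-fold and 2 after quantile normalization, after loess and above the background level. Between the peptides, the 1 higher gene became 0 and the 3 lower genes 1 above the background level, and both counts were 0 at 2-fold. The mean in place of the median gave -0.12 for the mitochondrial genes with Met-ENK. The other 107 of 108 recomputed medians stayed within 0.1 of the reported ones, including an alternative added after seeing the data that left out genes with equal signals on the 3 arrays. Which side of 0 these medians fall on is not stable, since they lie so close to it. Leaving out a replicate could not be done with 1 array per condition. No paired analysis was possible because each condition has 1 array.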
